A study of Homo sapiens with 6 samples.

Results

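The 10 genes described here encode the machinery that commits a human cell to DNA replication: the cyclins CCND1, CCND2, CCND3, CCNE1 and CCNE2, the kinases CDK4 and CDK6, the retinoblastoma protein RB1, and the kinase inhibitors CDKN1B and CDKN2C. They were taken by gene symbol, and all 10 of them were found among the 24462 symbols of the count tables, each on a single line. Their RNA was counted in 6 libraries of cells labelled MDA-MB-231, an invasive line from a triple-negative breast cancer. There were 3 groups with 2 libraries each. Control cells carried a control retrovirus. The other libraries came from cells labelled as a stable ELK3 knockdown, made with a retroviral short hairpin RNA, in which ELK3, an ETS-family transcription factor, is the target. One group of them was labelled as given the plasmid pLenti-cMyc-DDK without insert (vector-labelled) and the other as given the same plasmid with ELK3 (ELK3-labelled). Both received 1 µg of plasmid with a lipid reagent and were taken 48 hours later. No transfection is recorded for the controls, so the labelled knockdown and the transfection cannot be told apart in contrasts with them. Whether the knockdown line is 1 clone or a pool, what drives the inserted ELK3, and whether replicates are separate cultures are not given in the sources used here, so p-values measure the spread between these libraries, which may be technical.

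In G1, the phase before replication, D-type cyclins bind the kinases CDK4 and CDK6, and these complexes phosphorylate RB1. Unphosphorylated RB1 holds E2F transcription factors in check. Its phosphorylation frees them to transcribe E-type cyclins and replication genes, and cyclin E with CDK2 then completes the step. CDKN2C belongs to the INK4 inhibitors, which bind CDK4 and CDK6 and keep cyclin D out, while CDKN1B binds whole cyclin and kinase complexes and is best known for restraining CDK2. In breast cancer this pathway is the target of CDK4 and CDK6 inhibitors, drugs that require a working RB1.

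ELK3 ran against the labels, which bears on every direction below. It stood at 128.6 and 123.9 CPM (counts scaled to library size, with TMM correction for library composition) in the controls, at 758.9 and 697.2 CPM in the vector-labelled libraries and at 20.35 and 22.65 CPM in the ELK3-labelled ones. Against the controls this is a log2 difference of 2.53 ± 0.09 SE in vector-labelled and -2.54 ± 0.11 in ELK3-labelled libraries (edgeR quasi-likelihood test, adjusted p = 1.6e-22 and 3.53e-20). By the same test, ELK3 was 33.6-fold lower in ELK3-labelled than in vector-labelled libraries (-5.07 ± 0.11, adjusted p = 3.63e-28). The headings of the deposited count columns name these groups the other way round from the sample labels, KD+E over the libraries labelled with the empty vector and KD over those labelled with ELK3. ELK3 was highest under the heading KD+E and lowest under KD. Groups are named here by the sample labels, so the ELK3-labelled libraries are those with the least ELK3 RNA. Library totals ran from 4884483 to 9131214 counts, and each member had between 70 and 2124 counts in every library. All 20 genes listed as markers of MDA-MB-231 cells fell in both plasmid groups (summed level 9635 to 9703 CPM in the controls, 1118 to 1165 CPM in the vector-labelled and 1031 to 1068 CPM in the ELK3-labelled libraries; median log2 differences -3.61 and -4.03). Of 14 tested markers of HEK293, an embryonic kidney line, 11 were higher than in the controls in the vector-labelled and 12 in the ELK3-labelled libraries, and 1 was lower in each (summed level of all 16 listed 140.4 to 151.0, 465.4 to 475.9 and 1079 to 1084 CPM; PAX2 and STMN2 at 0 in the controls). Of all genes tested, 37.0% rose and 35.3% fell in vector-labelled libraries against the controls, and 31.8% rose and 30.8% fell in ELK3-labelled ones. Both marker lists were chosen with earlier results of these data known. For every gene below, the labelled treatments and a possible difference in cell identity cannot be told apart.

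Between vector-labelled and control libraries, 3 of 10 members rose and 5 fell, against 37.0% of all 15386 genes tested rising and 35.3% falling (edgeR quasi-likelihood test, Benjamini-Hochberg adjusted p under 0.05). Between ELK3-labelled and control libraries 4 rose and 4 fell, against 31.8% and 30.8% of all genes. Between ELK3-labelled and vector-labelled libraries 6 rose and 1 fell, against 30.0% and 29.6%. A difference of at least 2-fold was fitted for 5, 3 and 2 of the members in these comparisons, against 43.9%, 30.3% and 23.7% of all genes. The median log2 difference of the members was -0.37, -0.01 and 0.57, and that of all genes 0.05, 0.02 and -0.02. The comparisons share libraries, so their counts are not independent of each other.

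**Figure D1:**
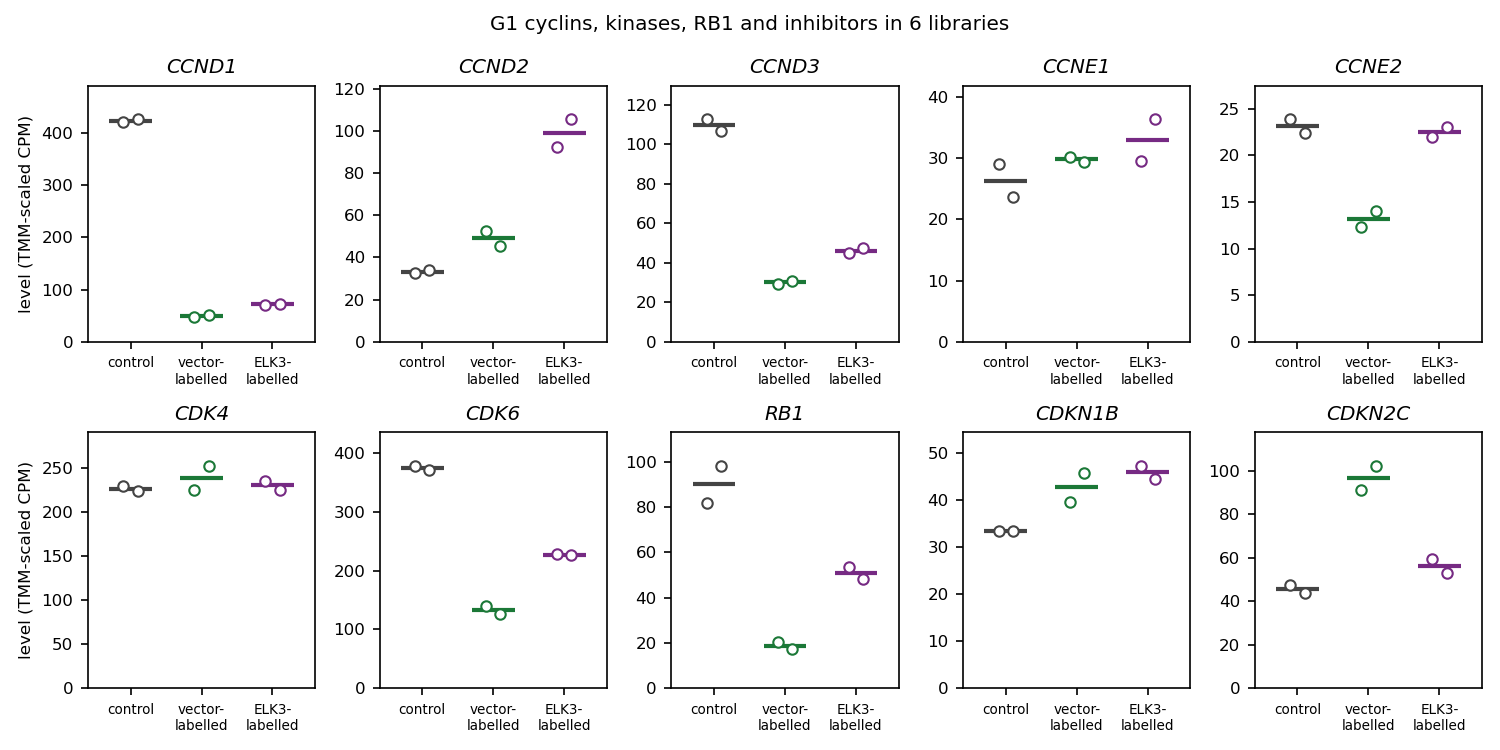
Level of each of the 10 members (vertical axis, TMM-scaled CPM, starting at 0) in the 2 libraries of each group (open circles), with the group mean as a bar. CCND1, CCND3, CDK6 and RB1 stand highest in the controls and lowest in the vector-labelled libraries, CCND2 stands highest in the ELK3-labelled libraries, CDKN2C highest in the vector-labelled libraries, and CDK4 lies between 224.3 and 252.9 CPM throughout.

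CCND1, the D-type cyclin gene best known as an oncogene in breast cancer, had 420.8 and 426.4 CPM in the controls, 48.2 and 51.6 CPM in the vector-labelled and 70.9 and 72.3 CPM in the ELK3-labelled libraries. Both plasmid groups lay far below the controls, and no groups overlapped. CCND1 was 8.51-fold lower in vector-labelled than in control libraries (log2 fold change -3.09 ± 0.09 SE, adjusted p = 3.67e-24) and 5.91-fold lower in ELK3-labelled ones (-2.56 ± 0.09, adjusted p = 9.49e-23). Between the plasmid groups it was 1.44-fold higher in the ELK3-labelled libraries, where ELK3 RNA was lower (0.53 ± 0.1, adjusted p = 2.99e-05). CCND1 occupies bases 69641087 to 69654474 of chromosome 11, plus strand (GENCODE 29, GRCh38), and a gene on the opposite strand, ORAOV1, now named LTO1, covers its end. ORAOV1 stood at 35.6, 43.9 and 25.0 CPM in the control, vector-labelled and ELK3-labelled groups. The libraries were read from transcript ends, and whether counting used strand is not given in the sources used here, so reads of CCND1 and ORAOV1 cannot be told apart where they overlap. GENCODE also annotates pseudogene copies of CCND2, CCND3 and CDK4, so how reads of near-identical sequence were assigned for these 3 members is uncertain.

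CCND2, a cyclin gene with the same kinase partners, ran the other way against the controls. Its level was 32.6 and 34.0 CPM in the controls, 52.7 and 45.6 CPM in the vector-labelled and 92.55 and 105.5 CPM in the ELK3-labelled libraries, in 3 groups that did not overlap. CCND2 rose 1.48-fold (0.57 ± 0.13, adjusted p = 0.000155) and 2.98-fold (1.58 ± 0.12, adjusted p = 8.13e-14) over the controls, and was 2.01-fold higher in ELK3-labelled than in vector-labelled libraries (1.01 ± 0.11, adjusted p = 7.11e-10). CCND2 occupies bases 4273772 to 4305350 of chromosome 12, plus strand, and a gene annotated on the same strand, AC008012.1, which the count tables do not list, covers its end. Lymphocytes also express CCND2, and 16 lymphocyte and NK cell markers summed to 304.7 to 310.9 CPM in the controls, 304.8 to 325.1 in the vector-labelled and 236.3 to 257.4 in the ELK3-labelled libraries. Their part in the CCND2 level was not tested.

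CCND3, the third of the family, followed CCND1 in order. It stood at 112.7 and 106.7 CPM in the controls, 29.5 and 30.6 CPM in the vector-labelled and 44.8 and 47.4 CPM in the ELK3-labelled libraries, again without overlap. The difference from the controls was -1.87 ± 0.11 on the log2 scale (3.65-fold lower, adjusted p = 2.13e-16) and -1.25 ± 0.1 (2.37-fold lower, adjusted p = 1.25e-12), and that between the plasmid groups 0.62 ± 0.12 (adjusted p = 2.41e-05). The gene spans 41934933 to 42050357 on the minus strand of chromosome 6 and has several transcription starts. Of 10 members, 7 matched the RefSeq promoter table (GRCh38.p14; each window runs from 250 bases before a start to 50 after it), with 12 windows in all. CCND1, CCND2 and CCNE2 have no entry, and the 1 window of RB1, at chr13:48476200-48476499, lies inside the gene, far from its annotated start at 48303726, so that start was not searched. One window of CCND3, at chr6:41941759-41942058 on the minus strand, is shown because it alone of these 12 windows holds the ETS-type word CCGGAA. ETS factors are the family of ELK3. Apart from this word and a longer form given below, no ETS site was searched for, so other forms may be present in any window. Capitals mark the word CCGGAA, whose first base lies at -166 from the start.

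CCND3: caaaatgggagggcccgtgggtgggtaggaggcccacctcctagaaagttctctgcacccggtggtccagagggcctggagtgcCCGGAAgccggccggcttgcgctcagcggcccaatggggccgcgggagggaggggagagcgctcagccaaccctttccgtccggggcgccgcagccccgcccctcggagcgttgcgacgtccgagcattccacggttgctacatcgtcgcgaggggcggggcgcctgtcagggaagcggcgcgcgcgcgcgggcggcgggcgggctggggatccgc

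The letters CCGGAA, on either strand, occurred in 17.2% of all 35116 promoters in the table and in 24.6% of the 16254 promoters of tested genes. The longer ETS word CCGGAAGT, which contains it, was in 4.14% and 6.6% of these sets and in none of the 12 member windows. The short ETS word and the short E2F word below were searched only after the longer words had given no match in any member window. Transcript-end counts do not show which start was used.

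CDK4 and CDK6, the kinases that D-type cyclins activate, parted. CDK4 had 229.8 and 224.3 CPM in the controls, 224.9 and 252.9 CPM in the vector-labelled and 235.8 and 225.5 CPM in the ELK3-labelled libraries, so all 3 groups overlapped. No difference passed the test, and the 95% intervals of the log2 differences were -0.1 to 0.25, -0.15 to 0.2 and -0.22 to 0.12 for vector-labelled against control, ELK3-labelled against control and ELK3-labelled against vector-labelled. With library totals in place of TMM scaling, CDK4 was called higher in vector-labelled than in control libraries (0.21, adjusted p = 0.0328). CDK4 occupies bases 57747727 to 57756013 of chromosome 12, minus strand, and TSPAN31 on the opposite strand, at 22.25, 25.2 and 37.5 CPM in the 3 groups, covers its end.

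CDK6, from chromosome 7 (92604921 to 92836594, minus strand), had 377.7 and 371.4 CPM in the controls, 140.0 and 125.9 CPM in the vector-labelled and 227.7 and 225.8 CPM in the ELK3-labelled libraries. The groups were well apart, with the ELK3-labelled libraries between the others. CDK6 fell 2.81-fold (-1.49 ± 0.09, adjusted p = 1.17e-16) and 1.65-fold (-0.72 ± 0.08, adjusted p = 3.18e-09) against the controls, and was 1.7-fold higher in ELK3-labelled than in vector-labelled libraries (0.77 ± 0.09, adjusted p = 3.02e-09).

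RB1, the substrate of these kinases and a tumour suppressor, had the same order of groups. It stood at 82.0 and 98.3 CPM in the controls, 20.3 and 17.4 CPM in the vector-labelled and 53.6 and 48.3 CPM in the ELK3-labelled libraries. The controls differed from each other more than in the other members named so far, yet no groups overlapped. The RB1 level was 4.74-fold lower in vector-labelled libraries (-2.24 ± 0.13, adjusted p = 1.28e-16) and 1.78-fold lower in ELK3-labelled libraries (-0.83 ± 0.11, adjusted p = 7.69e-08). Between the plasmid groups RB1 was 2.67-fold higher in the ELK3-labelled libraries, where ELK3 RNA was lower (1.42 ± 0.13, adjusted p = 6.29e-11). That difference was the largest of any member in that comparison. RB1 spans 48303726 to 48599436 on the plus strand of chromosome 13, with LPAR6 and RCBTB2 on the opposite strand inside or overlapping it but not over its end.

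**Figure D2:**
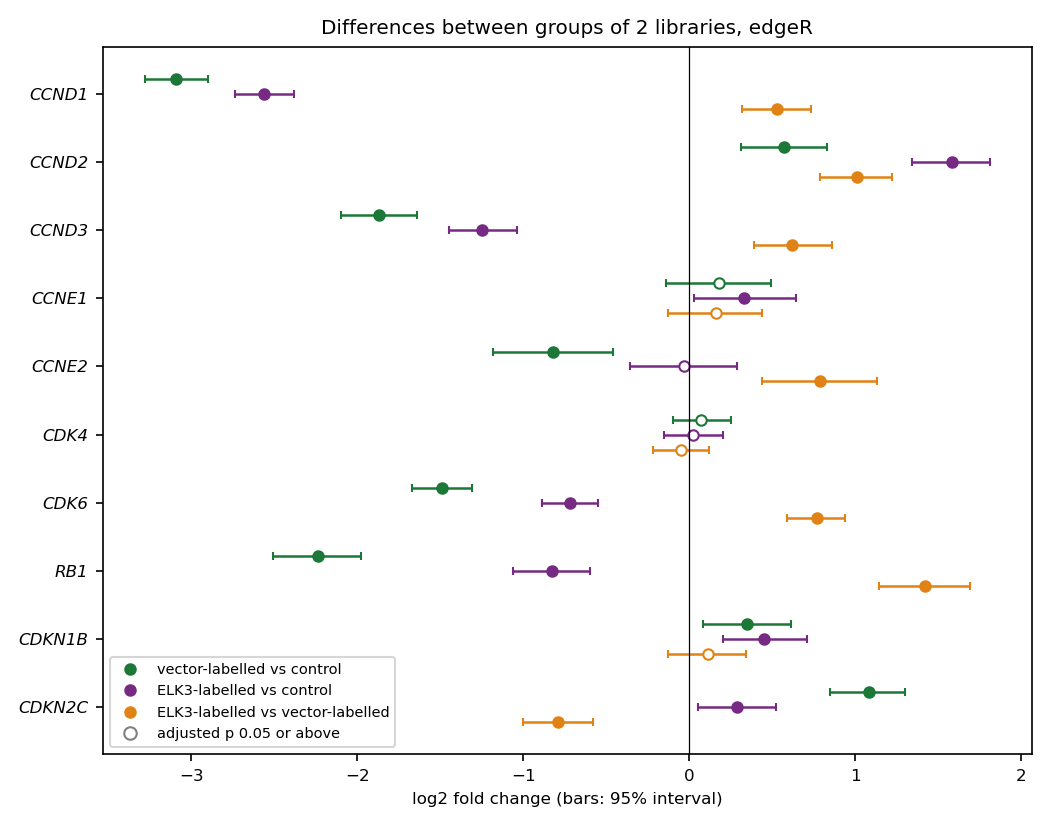
Log2 fold change of each member in the 3 comparisons (horizontal axis; points are the edgeR estimate, bars its 95% interval, filled points have an adjusted p under 0.05). Against the controls, CCND1, CCND3, CDK6 and RB1 lie left of 0 in both plasmid groups, while all 3 intervals of CDK4 include 0. Between the plasmid groups, CDKN2C is the only member called lower.

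CDKN2C, the INK4 inhibitor of CDK4 and CDK6, had 47.7 and 43.9 CPM in the controls, 91.4 and 102.3 CPM in the vector-labelled and 59.3 and 52.95 CPM in the ELK3-labelled libraries. The vector-labelled libraries stood well above all others, and the other 2 groups lay close together without overlap. CDKN2C rose 2.11-fold in vector-labelled libraries (1.08 ± 0.11, adjusted p = 1.89e-10), and was 1.73-fold lower in ELK3-labelled than in vector-labelled ones (-0.79 ± 0.1, adjusted p = 5.26e-08). Its higher level in ELK3-labelled than in control libraries was small (0.29 ± 0.11, adjusted p = 0.0289). That call was lost without control replicate 2 (adjusted p = 0.174), without ELK3-labelled replicate 1 (0.195) and with DESeq2 (0.114). In ELK3-labelled libraries 14 of 14 liver genes, which were present in every library at a summed 10895 to 14473 CPM, were lower than in the controls (median log2 fold change -0.28). That shift is close in size to the CDKN2C difference and opposite in sign, and its part in the small member differences of that comparison was not tested.

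CDKN2C spans 50960745 to 50974633 on the plus strand of chromosome 1. Its window at chr1:50968456-50968755 on the plus strand is shown because it is the only 1 of the 12 windows searched that holds the E2F-type word GCGGGAA, once on each strand. Capitals mark the 2 matches, whose first bases lie at -131 and -34 from the start.

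CDKN2C: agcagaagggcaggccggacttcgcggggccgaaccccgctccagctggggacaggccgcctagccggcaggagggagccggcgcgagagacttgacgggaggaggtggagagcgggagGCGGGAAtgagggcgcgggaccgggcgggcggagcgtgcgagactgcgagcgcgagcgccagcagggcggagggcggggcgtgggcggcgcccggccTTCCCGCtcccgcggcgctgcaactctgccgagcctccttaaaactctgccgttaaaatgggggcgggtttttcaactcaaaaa

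GCGGGAA, on either strand, was in 6.55% of all promoters in the table and 9.07% of those of tested genes. It overlaps the longer E2F word TTTCCCGC, which was in 1.63% and 2.2% of these sets. TTTCCCGC and a further E2F word, TTTGGCGC (0.652% and 0.997%), were in no member window.

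CDKN1B, the inhibitor that acts on cyclin E with CDK2, had 33.5 and 33.3 CPM in the controls, 39.7 and 45.8 CPM in the vector-labelled and 47.2 and 44.4 CPM in the ELK3-labelled libraries. Both plasmid groups lay above the controls and overlapped each other. CDKN1B rose 1.37-fold in ELK3-labelled libraries (0.45 ± 0.13, adjusted p = 0.00226) and 1.27-fold in vector-labelled ones (0.35 ± 0.13, adjusted p = 0.0176). The plasmid groups did not differ beyond their spread (0.11 ± 0.12, 95% interval -0.13 to 0.34, adjusted p = 0.456). The call in vector-labelled libraries was lost without control replicate 1 (adjusted p = 0.0536), control replicate 2 (0.0685) or vector-labelled replicate 2 (0.192, log2 fold change 0.23), with DESeq2 (0.0813) and with no filter (0.0549). CDKN1B occupies bases 12715058 to 12722371 of chromosome 12, plus strand.

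CCNE1 and CCNE2 encode the E-type cyclins that E2F factors transcribe. CCNE1, on chromosome 19 (29811898 to 29824308, plus strand), had 29.1 and 23.65 CPM in the controls, 30.3 and 29.4 CPM in the vector-labelled and 29.6 and 36.4 CPM in the ELK3-labelled libraries. Its levels lay close together in all 6 libraries. The difference of ELK3-labelled from control libraries passed the test narrowly (0.33 ± 0.15, 1.26-fold, adjusted p = 0.0489). It was lost without control replicate 2 (0.19, adjusted p = 0.362), ELK3-labelled replicate 2 (0.16, adjusted p = 0.47) or either vector-labelled replicate (adjusted p of 0.0515 and 0.0511), and with DESeq2 (0.19), DESeq2 size factors (0.054), only the 4 libraries compared (0.0536) and the replicate number as a block (0.0557). The other comparisons of CCNE1 were not called, with 95% intervals of -0.14 to 0.49 for vector-labelled against control and -0.13 to 0.44 for ELK3-labelled against vector-labelled.

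CCNE2 had 23.8 and 22.4 CPM in the controls, 12.3 and 14.0 CPM in the vector-labelled and 21.9 and 23.1 CPM in the ELK3-labelled libraries. The vector-labelled libraries stood below all others, while control and ELK3-labelled libraries overlapped. CCNE2 was 1.76-fold lower in vector-labelled than in control libraries (-0.82 ± 0.18, adjusted p = 0.000121) and 1.72-fold higher in ELK3-labelled than in vector-labelled ones (0.79 ± 0.17, adjusted p = 0.000146). ELK3-labelled against control was not called (-0.03 ± 0.16, 95% interval -0.36 to 0.29, and 0.12 with library totals). CCNE2 occupies bases 94879770 to 94896678 of chromosome 8, minus strand, where INTS8 on the opposite strand covers its end. INTS8 stood at 26.1, 18.3 and 29.5 CPM in the control, vector-labelled and ELK3-labelled groups. Like CCNE2, it was lower in vector-labelled than in control libraries (-0.51 ± 0.16, adjusted p = 0.00524). It was also higher in ELK3-labelled than in vector-labelled libraries (0.69 ± 0.15, adjusted p = 0.00016) and not called in ELK3-labelled against control (0.18 ± 0.15). Reads of these overlapping genes cannot be told apart without knowing the counting. The part of INTS8 reads in the CCNE2 differences was not tested.

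**Figure D3:**
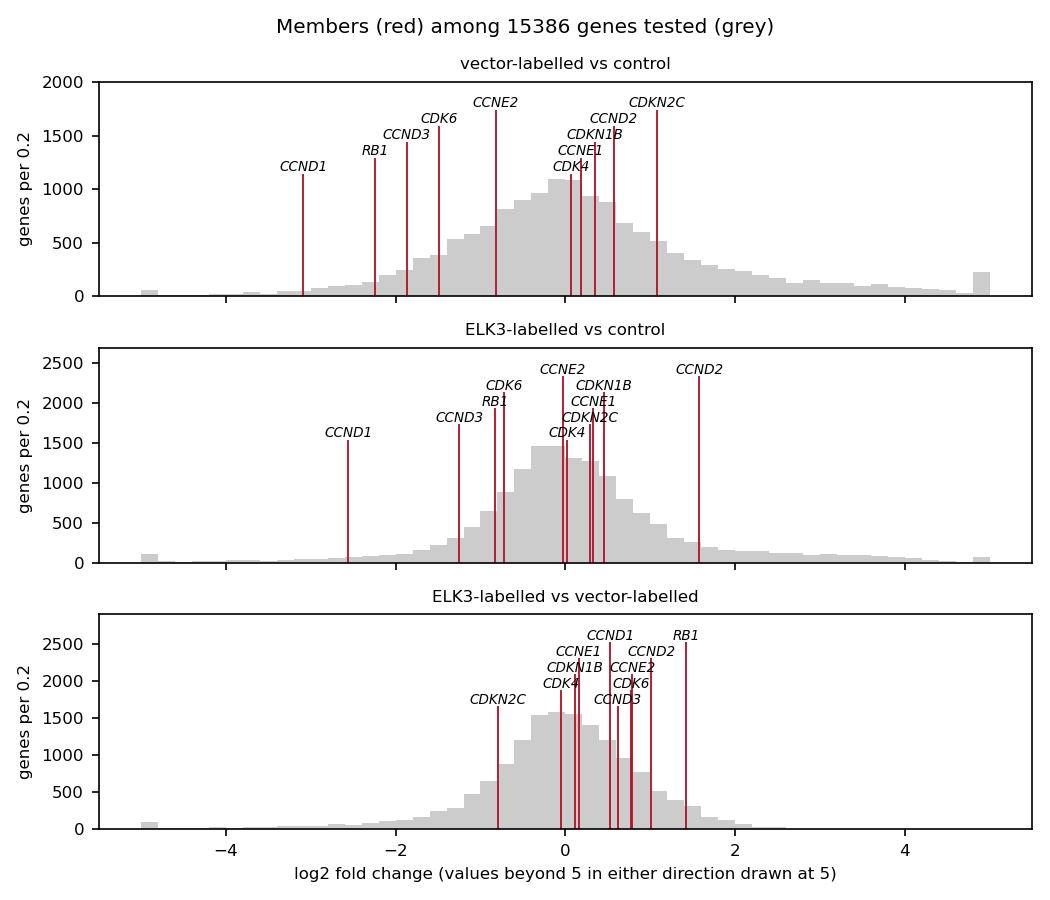
Distribution of log2 fold changes of all 15386 genes tested (grey, genes per bin of 0.2) with the members marked by red lines, 1 panel per comparison. CCND1 lies in the lower tail of both contrasts with the controls, at -3.09 and -2.56, while CDK4 lies near the centre of all 3.

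Several members shared their pattern over the libraries with other genes. By the root mean square difference of centred log2 CPM over the 6 libraries, among 10429 genes of at least 10 CPM on average, the gene most like CCND1 was FRMD6 (0.06), that most like RB1 was CHMP5 (0.054), that most like CDK6 was WDR75 (0.037) and that most like CDKN2C was ILF2 (0.035). The nearest to CCND2 was ZNF213 (0.077), to CCND3 PPM1G (0.053), to CCNE1 FAM200A (0.059), to CCNE2 AGPAT3 (0.008), to CDK4 MAPKAPK5 (0.03) and to CDKN1B ZNF593 (0.038). Within a difference of 0.2, CCND1 had 31 such neighbours, CCND2 had 63, RB1 had 81 and CCND3 had 257. There were 501 for CDK6, 503 for CDKN2C, 736 for CCNE2, 778 for CCNE1, 985 for CDKN1B and 1428 for CDK4. With 3 groups setting most of each pattern, many genes come close, and the measure describes these libraries only.

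The rest of the pathway was described by 69 further genes in 7 lists, of which 68 were tested. Against the controls, 30 rose and 24 fell in vector-labelled libraries (median log2 fold change 0.16) and 31 rose and 18 fell in ELK3-labelled libraries (0.11). Between the plasmid groups, 27 rose and 22 fell (0.02). The shares of all genes given above are the background for these counts. The pathway differences named below passed the test unless said otherwise, and are log2 fold changes ± SE against the controls, vector-labelled first.

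Of the 5 other kinase inhibitors, 2 rose and 1 fell in vector-labelled and 4 rose and 1 fell in ELK3-labelled libraries against controls, and 2 rose and 3 fell between the plasmid groups. CDKN2A and CDKN2B, INK4 genes that share a locus, were higher in both plasmid groups than in the controls. Induction and a possible difference in cell identity cannot be told apart for these genes. CDKN2A went from 13.4 and 17.6 CPM in the controls to 200.4 and 235.5 CPM in the vector-labelled and 174.8 and 174.7 CPM in the ELK3-labelled libraries. Its differences from the controls were 3.81 ± 0.13 (adjusted p = 3.68e-23) and 3.49 ± 0.13 (adjusted p = 4.48e-22). CDKN2B went from 1.05 and 1.29 CPM to 37.2 and 36.4 CPM and to 19.6 and 18.3 CPM (4.96 ± 0.27 and 3.99 ± 0.3). Its control levels rested on only 5 and 6 counts. CDKN2D, the remaining INK4 gene, fell in both (-0.79 ± 0.11 and -1.84 ± 0.12). The INK4 genes did not share a direction, with CDKN2C, CDKN2A and CDKN2B higher and CDKN2D lower than in the controls.

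Among 12 genes of RB1 relatives, E2F factors and their DP partners, 2 rose and 7 fell in vector-labelled libraries against controls (median -0.64), 3 rose and 6 fell in ELK3-labelled libraries (-0.33), and 8 rose and 3 fell between the plasmid groups (0.73). E2F4, a repressive E2F that works with the RB1 relatives, had 52.7 and 52.9 CPM in the controls, 14.8 and 12.6 CPM in the vector-labelled and 37.5 and 36.15 CPM in the ELK3-labelled libraries (-1.93 ± 0.15 and -0.52 ± 0.12 against the controls). E2F5 (-1.66 ± 0.17) and E2F7 (-1.95 ± 0.16) fell likewise in vector-labelled libraries. E2F7 also fell in ELK3-labelled libraries (-1.31 ± 0.15), where E2F5 was not called (-0.24 ± 0.14).

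Of 9 tested genes of other cyclins, kinases and CDK activation, 4 rose and 5 fell in vector-labelled and 2 rose and 5 fell in ELK3-labelled libraries against controls, and 3 rose and 4 fell between the plasmid groups. CDK7, the kinase that activates other CDKs, fell (-1.96 ± 0.18 and -0.81 ± 0.15), as did CDC37, a chaperone partner that folds CDK4 (-1.83 ± 0.09 and -1.16 ± 0.09). CDK3 rose from 9.2 and 7.31 CPM to 70.7 and 61.0 CPM in vector-labelled libraries (3.0 ± 0.17) and stood at 11.45 and 11.5 CPM in ELK3-labelled ones (0.47 ± 0.21, not called).

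The 8 genes of mitogen signals to cyclin D included MYC, a growth-promoting transcription factor, which had 57.3 and 60.9 CPM in the controls, 11.2 and 7.4 CPM in the vector-labelled and 17.2 and 12.0 CPM in the ELK3-labelled libraries. It fell in both contrasts with the controls (-2.63 ± 0.18 and -2.05 ± 0.16). MAPK3, or ERK1, rose in both (1.87 ± 0.14 and 1.32 ± 0.14), as did FOXO1, a factor that transcribes CDKN1B (0.41 ± 0.13 and 1.01 ± 0.12). In all, 3 of the 8 rose and 2 fell in vector-labelled libraries, 4 rose and 1 fell in ELK3-labelled ones, and 5 rose and 1 fell between the plasmid groups.

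Genes that degrade or spare these proteins numbered 12, of which 7 rose and 3 fell in vector-labelled and 6 rose and 2 fell in ELK3-labelled libraries against controls, with 2 rising and 4 falling between the plasmid groups. AMBRA1, the adaptor that marks D-type cyclins for destruction, went from 7.95 and 8.39 CPM to 47.45 and 33.2 CPM in vector-labelled (2.32 ± 0.2) and 17.3 and 22.9 CPM in ELK3-labelled libraries (1.32 ± 0.22). FBXW7, the adaptor that marks cyclin E, rose by 1.7 ± 0.1 and 0.97 ± 0.1. USP2, a deubiquitinase that stabilises cyclin D1, rose by 3.13 ± 0.3 and 3.1 ± 0.3 from 1.67 and 1.94 CPM in the controls. Those USP2 control levels rested on only 8 and 9 counts.

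The 15 E2F-responsive replication genes were mixed. Of these, 7 rose and 4 fell in vector-labelled libraries against controls (median 0.24), 10 rose and 3 fell in ELK3-labelled libraries (0.36), and 6 rose and 3 fell between the plasmid groups (0.06). CDC6, which loads the replicative helicase, had 84.3 and 82.8 CPM in the controls, 310.4 and 316.8 CPM in the vector-labelled and 113.4 and 121.8 CPM in the ELK3-labelled libraries (1.91 ± 0.09 and 0.5 ± 0.09). MCM3, a helicase subunit, went the other way (-1.51 ± 0.1 and -0.37 ± 0.09).

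Of 7 genes of the MuvB complex, which cooperates with RB1 relatives to repress or activate cell cycle genes, and its partners, 5 rose and 2 fell in vector-labelled libraries (median 0.91), and 2 rose and 0 fell in ELK3-labelled libraries against controls (-0.11). Between the plasmid groups 1 rose and 4 fell (-0.36). MYBL2, an activating partner, rose by 1.72 ± 0.1 and 1.36 ± 0.1. The core subunit LIN52 had 9.62 and 10.3 CPM in the controls, 30.55 and 30.2 CPM in the vector-labelled and 10.2 and 8.19 CPM in the ELK3-labelled libraries (1.61 ± 0.19, and -0.14 ± 0.22, which was not called). LIN37 rose in vector-labelled libraries (1.07 ± 0.29) and was not called in ELK3-labelled ones (0.09 ± 0.31).

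**Figure D4:**
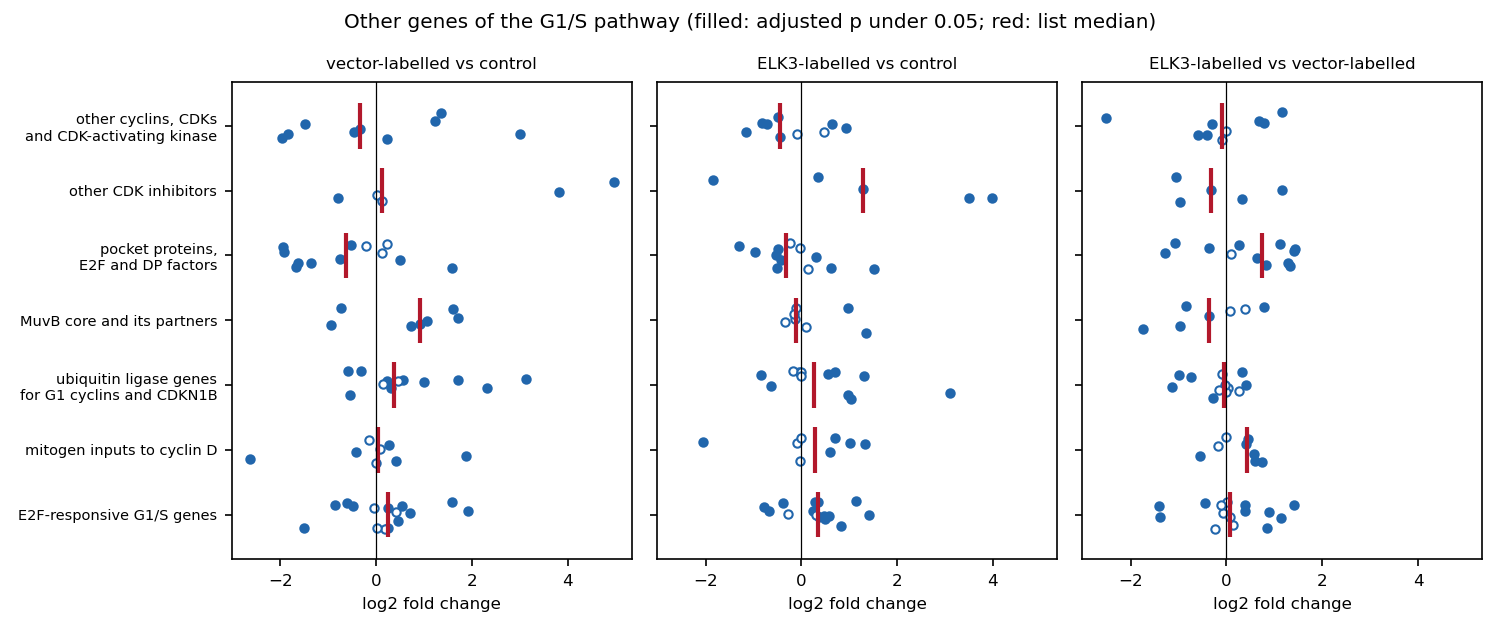
Log2 fold changes of the 68 tested pathway genes other than the members, by list, in the 3 comparisons (points are genes, filled where the adjusted p is under 0.05; red bars are list medians). The E2F list has medians of -0.64, -0.33 and 0.73 in the 3 panels, and CDKN2A and CDKN2B are the highest points of the inhibitor list in both contrasts with the controls.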

How the data were processed

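RNA libraries were made with Lexogen's Quant-Seq kit, per the labels' protocols; such kits read transcript ends. Bowtie2, edgeR and the hg19 build are named without role or version per the submitters' processing notes. The authors deposited raw counts per gene symbol and library. The counting tool, annotation, strand setting and any filter are not given in the sources used here. Lines sharing a symbol (286 symbols, no member) were summed. Replicates of a group differed beyond counting error (chi-square per degree of freedom 2.31 to 3.21).

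The tests used edgeR 4.0.16 under R 4.3.3: filterByExpr, TMM, and 1 robust quasi-likelihood fit with a mean per group on all 6 libraries (3 residual degrees of freedom). Two-sided p-values from the 15386 genes tested were given the Benjamini-Hochberg adjustment, with a threshold of 0.05. The SE is the log2 fold change divided by the square root of F. The 95% intervals use the t quantile at the total degrees of freedom of the test. These add a prior part, estimated over all genes, to the residual ones, so the p-values also rest on a spread shared between genes. CPM values are counts scaled to TMM-corrected library size. Counting floors cover counting error only: 0 counts would allow up to 3 counts, or 0.329 to 0.614 CPM, in a library.

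The members and all lists were chosen with earlier results of these data known. All 10 members were named. For each pathway list, the rule named up to 3 called genes of at least 10 CPM in the highest group, by the largest absolute log2 fold change over the comparisons, and for each member the 1 gene nearest in pattern. One gene named by this rule is not reported here. Nearest patterns used log2 CPM with a prior count of 2. Markers of luminal breast cells, lymphocytes and liver were listed besides. Of 9 luminal genes 5 rose and 3 fell in vector-labelled and 4 rose and 2 fell in ELK3-labelled libraries against controls, and of 14 tested lymphocyte genes 1 rose and 0 fell and 1 rose and 5 fell. No liver gene of 14 was called in vector-labelled libraries. The background for these marker counts is the share of all genes tested. Against the controls, 37.0% rose and 35.3% fell in vector-labelled libraries, and 31.8% rose and 30.8% fell in ELK3-labelled ones. Gene positions are from GENCODE 29 (GRCh38), used for annotation only, and promoters from RefSeq (GRCh38.p14). Alternatives were a replicate block, other scalings, DESeq2 1.42.0, limma-voom (limma 3.58.1), other filters, a fit of just the compared groups (4 libraries), and fits that omit 1 library.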

Additional observations from a re-analysis of the deposited data

How the results depend on the processing

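Over 14 alternative settings, 395 member results kept their direction and their side of the threshold, 16 called values lost their call, 1 was newly called and 8 changed sign. The 15 calls of CCND1, CCND2, CCND3, CDK6 and RB1 and the calls of CCNE2 held in every setting. No called value changed sign. The sign changes were of uncalled values. In ELK3-labelled against control libraries, CCNE2 was 0.12 with library totals and -0.08 to 0.01 with 1 library left out (above 0 without control replicate 1), and CDK4 was -0.01 to 0.05 (below 0 without ELK3-labelled replicate 1). In vector-labelled against control libraries CDK4 was -0.03 to 0.16 (below 0 without vector-labelled replicate 2). In ELK3-labelled against vector-labelled libraries CDK4 was 0.01 with no filter and -0.13 to 0.05 with 1 library left out (above 0 without vector-labelled replicate 2), CDKN1B was -0.0023 to 0.22 (below 0 without vector-labelled replicate 1) and CCNE1 was -0.01 to 0.28 (below 0 without ELK3-labelled replicate 2). The cause was not tested.

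Members higher in ELK3-labelled than in control libraries numbered 2 with DESeq2 and 2 to 4 with 1 library left out, the lower count without control replicate 2. With the replicate number as a block they numbered 3, CCNE1 being lost, and no other member call changed. The numbers do not pair the libraries by label, and replicate deviations correlated at -0.0556 to 0.0332 between groups. Library totals moved the median of all genes in ELK3-labelled against control libraries from 0.02 to 0.18, and the share of calls that were higher from 50.8% to 61.1%. The lowest member count in a library was 70 (CCNE2). The effect of depth on the small differences was not tested.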
